A study of Homo sapiens with 4 samples.

Results

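The SLC25 genes encode the mitochondrial carriers, the largest family of transporters in the inner mitochondrial membrane. They were taken as every gene of the count table whose symbol begins with SLC25A followed by a digit, which gave 50 of 28930 genes. Of these, 48 code for proteins and 2 are antisense RNAs (SLC25A5-AS1 and SLC25A30-AS1). The relatives that carry other symbols (the uncoupling proteins UCP1, UCP2 and UCP3 and the outer-membrane proteins MTCH1 and MTCH2) fell outside this rule.

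RNA sequencing compared 2 libraries from MDA-MB-231 cells given a control siRNA with 2 libraries from the same line given an siRNA against hTrmt13. MDA-MB-231 is an established triple-negative human breast cancer line, and hTrmt13, the product of TRMT13, is a methyltransferase that acts on tRNA. The siRNA sequences, the doses, the time after transfection, and whether the replicates came from separate cultures, are not stated in the labels. The p-values therefore measure the spread between these libraries, which may be technical.

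A mitochondrial carrier moves small molecules across the inner membrane, most often by exchanging a metabolite of the matrix for one of the cytosol. The family supplies the respiratory chain and ATP synthase with phosphate and ADP, exports ATP and citrate, runs the malate-aspartate shuttle, and brings in cofactors, nucleotides, iron and amino acids. Most members are made in the cytosol and reach the inner membrane with the help of small TIM chaperones and the TIM22 complex.

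The smallest library held 9777267 counts and the largest 13098985, so 1 CPM, a count scaled to library size, rests on about 10 to 13 counts. TRMT13 fell 4.05-fold in the knockdown (edgeR adjusted p = 0.0399), with each library on the side its label gives. Among markers of the line, VIM, CD44 and AXL stood above 150 CPM in all 4 libraries, while ESR1 and PGR had no count and CDH1 was under 0.1 CPM. Markers of blood cells were at or near 0 (PTPRC at most 0.9 CPM, CD3E at 0), as was the fibroblast marker DCN. The epithelial marker EPCAM stood at 2.19 to 6.34 CPM and the collagen COL1A1 at 19.2 to 45.7 CPM. The endothelial cadherin CDH5 stood at 6.58 and 3.79 CPM with control siRNA and 0 and 0.15 CPM after knockdown, and its part in the results was not tested. The share of counts on mitochondrially encoded genes was 6.88% and 4.82% with control siRNA and 6.25% and 5.18% after knockdown.

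Of the 48 carrier genes, 40 had enough reads to be tested, with 88 counts over the 4 libraries for SLC25A10 and 33365 for SLC25A3 as the lowest and highest totals. SLC25A2, SLC25A31, SLC25A41, SLC25A48 and SLC25A52 had 0 counts in every library, which allows a level of up to 0.225 to 0.313 CPM depending on the library (3 counts, for counting error only). SLC25A18, SLC25A34 and SLC25A47 had 4, 35 and 1 counts over the 4 libraries and were not tested. SLC25A31 is the testis form of the ADP/ATP carrier and SLC25A2 the lesser ornithine carrier. Of the antisense RNAs, SLC25A5-AS1 had 5 to 10 counts per library and SLC25A30-AS1 had 0, and neither was tested.

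None of the 40 tested carriers passed the threshold for the knockdown (an adjusted p under 0.05 by Benjamini-Hochberg over all 13022 tested genes, from edgeR's quasi-likelihood test), where 2.99% of all genes did. The smallest adjusted p among them was 0.077, for SLC25A30. At an unadjusted p under 0.05 there were 7 carriers (17.5%), against 24.0% of all tested genes. Of these, 4 had higher and 3 had lower levels in the knockdown, against 11.5% and 12.5% of all tested genes in those directions. DESeq2 called 2 carriers, SLC25A30 and SLC25A45, both lower, where it called 8.55% of the genes with an adjusted p.

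In bulk libraries such as these, fewer expressing cells and less RNA per cell cannot be told apart. The carriers as a group lay close to 0. Their median log2 fold change was 0.07, beside 0.01 over all tested genes, with 23 positive and 17 negative values. The central values from the 25th to the 75th percentile ran from −0.36 to 0.20, beside −0.40 to 0.39 over all tested genes. The median size of the change, whatever its sign, was 0.26 for the carriers and 0.40 for all tested genes. Both knockdown libraries lay on one side of both control libraries in 20 of the 40 carriers (50.0%), against 54.3% of all tested genes. They lay above in 9 carriers and below in 11, against 27.5% and 26.8% of all tested genes. Summed over the 48 carriers, the level was 2774 and 3118 CPM with control siRNA and 2975 and 3219 CPM after knockdown, so the groups overlapped.

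**Figure D1:**
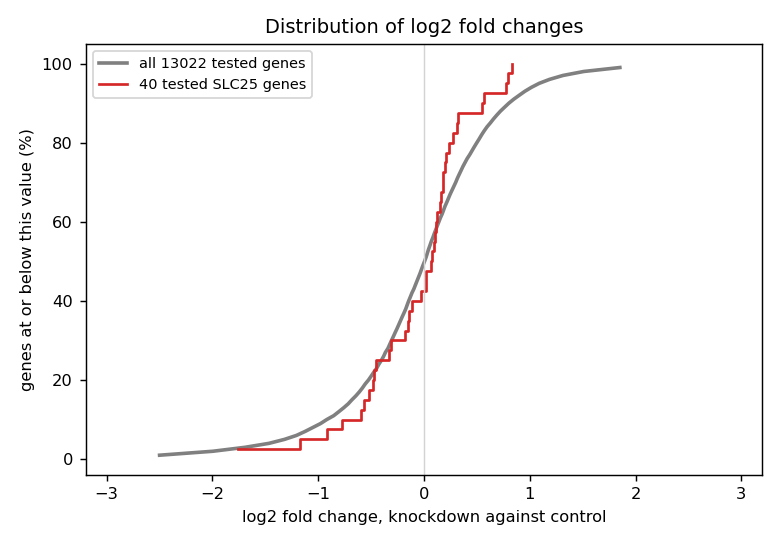
Cumulative distribution of the log2 fold change of knockdown against control (horizontal axis) for the 40 tested SLC25 genes (red steps) and, from the 1st to the 99th percentile, for all 13022 tested genes (grey line); the vertical axis gives the percentage of genes at or below a value. The carriers run from −1.76 to 0.83, and both curves cross the middle near 0.

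**Figure D2:**
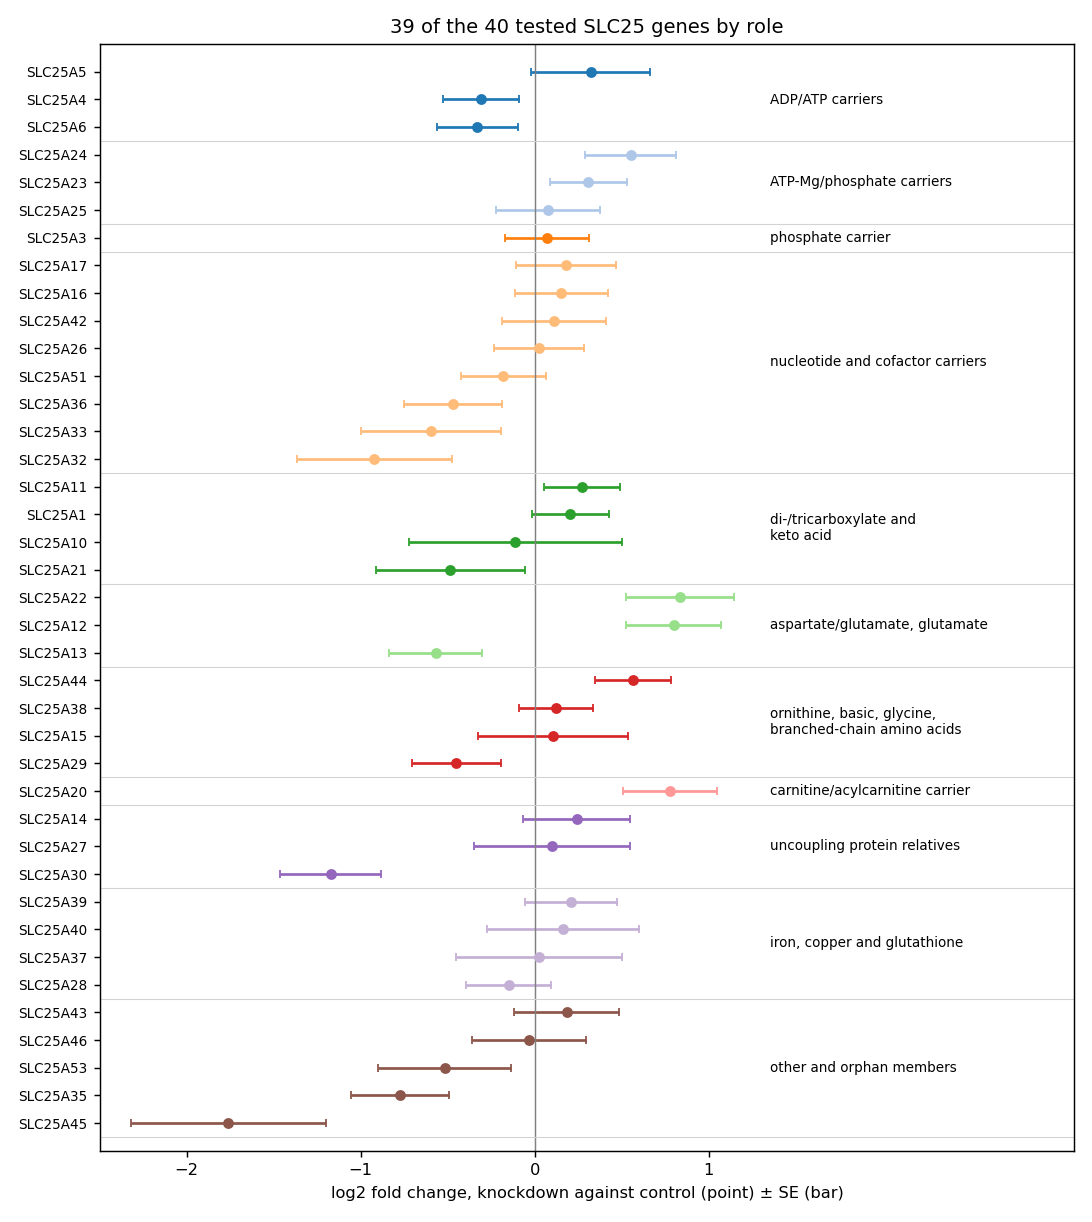
Log2 fold change of knockdown against control (point) with an SE derived from the edgeR fit (bar). Shown are 39 of the 40 tested SLC25 genes, grouped by the role of the carrier. SLC25A45 and SLC25A30 lie farthest below 0, and SLC25A22, SLC25A12 and SLC25A20 farthest above.

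The phosphate carrier and the ADP/ATP carriers serve ATP synthesis. Levels of different genes were compared per kb of transcript, using the longest and, separately, the median length of the basic protein-coding transcripts in GENCODE 29. By either length SLC25A3, SLC25A5, SLC25A6 and SLC25A39 held the first 4 places in the control libraries. Their order depended on the length used, since SLC25A3 led by the median length and came last of the 4 by the longest.

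SLC25A3, the phosphate carrier, stood at 591.1 and 788.2 CPM with control siRNA and 639.1 and 808.3 CPM after knockdown, so the groups overlapped. Its log2 fold change was 0.07 (edgeR, 95% interval −0.50 to 0.64), or 0.707-fold to 1.56-fold. SLC25A5, the ADP/ATP carrier of proliferating cells, stood at 194.3 and 344.5 CPM with control siRNA and 265.4 and 407.5 CPM after knockdown. Within each group replicate 2 was the higher library, and the groups overlapped. SLC25A6, the ubiquitous ADP/ATP carrier, stood at 311.1 and 252.6 CPM with control siRNA and 252.9 and 195.6 CPM after knockdown. SLC25A4, the main form of heart and skeletal muscle, stood at 60.4 and 63.9 CPM with control siRNA and 50.4 and 49.96 CPM after knockdown, with no overlap. Their log2 fold changes were 0.32, −0.33 and −0.31, with edgeR adjusted p-values of 0.611, 0.439 and 0.437.

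Among the 3 detected ADP/ATP carriers, SLC25A5 made up 48.1% and 66.4% of the summed CPM per kb in control and 60.9% and 75.1% in knockdown. SLC25A6 made up 47.6% and 30.1% in control and 35.8% and 22.3% in knockdown. SLC25A4 made up 4.29% and 3.53% in control and 3.32% and 2.64% in knockdown, without overlap. Replicates of a group differed by more than 10 percentage points in the shares of SLC25A5 and SLC25A6, and the groups overlapped for both. ADP/ATP carrier genes have processed pseudogenes that can share their reads, and SLC25A6 lies in the pseudoautosomal region of X and Y, so these levels depend on how the authors counted such reads.

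The ATP-Mg/phosphate carriers, which adjust the adenine nucleotide pool of the matrix in response to calcium, had positive values in the 3 that were tested. SLC25A24 stood at 120.1 and 159.0 CPM with control siRNA and 170.3 and 238.6 CPM after knockdown, 1.46-fold higher without overlap (log2 fold change 0.55, SE 0.26, edgeR adjusted p = 0.258). SLC25A23 had a log2 fold change of 0.31 and SLC25A25 one of 0.07, the latter with overlapping groups. These 3 genes were not among those with an unadjusted p under 0.05.

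The aspartate/glutamate carriers differed in direction from each other. SLC25A12 (aralar) and SLC25A13 (citrin) both export aspartate from the matrix in exchange for glutamate, a step of the malate-aspartate shuttle that carries cytosolic reducing equivalents into mitochondria. Their 250 bases upstream of the RefSeq transcription start are shown to set the promoters of this pair side by side, 5′ to 3′ on the gene's strand, with capitals for the letters of the motifs named below. They lie on GRCh38.p14 at chr2:171894245-171894494 and chr7:96322099-96322348, both on the minus strand, whereas the counts come from files for which the submitters' processing notes name hg19 and GRCh37.
SLC25A12: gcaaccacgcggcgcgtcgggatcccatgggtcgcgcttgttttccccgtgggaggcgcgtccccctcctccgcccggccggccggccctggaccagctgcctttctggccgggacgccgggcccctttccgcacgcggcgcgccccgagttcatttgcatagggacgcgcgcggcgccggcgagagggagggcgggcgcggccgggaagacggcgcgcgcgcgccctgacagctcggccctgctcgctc
SLC25A13: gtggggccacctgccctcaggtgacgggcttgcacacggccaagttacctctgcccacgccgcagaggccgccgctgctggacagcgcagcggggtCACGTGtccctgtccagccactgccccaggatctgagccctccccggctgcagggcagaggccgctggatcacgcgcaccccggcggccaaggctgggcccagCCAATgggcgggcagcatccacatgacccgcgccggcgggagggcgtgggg

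On either strand, the SLC25A13 window held 1 E-box (CACGTG) and 1 CCAAT box (CCAAT), while neither these letters nor the NRF1 core GCATGC or the ETS core CCGGAAG occurred in the SLC25A12 window. An E-box was present in 6 of the 34 tested carriers with a promoter in the RefSeq table (17.6%), against 8.90% of the 9686 promoters of tested genes, and a CCAAT box in 17 of 34 (50.0%), against 35.2%. The ETS core was present in 7 of 34 (20.6%, against 16.0%) and the NRF1 core in 1 of 34 (2.94%, against 8.04%). The motifs do not overlap one another in the SLC25A13 window. These are letter matches in a short window and were not tested.

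SLC25A12 stood at 21.6 and 27.9 CPM with control siRNA and 37.3 and 48.9 CPM after knockdown. Both knockdown libraries lay above both control libraries, a mean of 43.1 ± 8.23 against 24.8 ± 4.47 CPM (SD, n = 2), 1.74-fold higher (log2 fold change 0.80, SE 0.27, edgeR adjusted p = 0.144). SLC25A13 stood at 67.6 and 96.5 CPM with control siRNA and 49.3 and 61.3 CPM after knockdown. Here both knockdown libraries lay below, 1.48-fold lower on average (log2 fold change −0.57, SE 0.27, edgeR adjusted p = 0.252). Neither passed the threshold.

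Per kb, SLC25A12 made up 25.5% and 23.7% of the pair with control siRNA and 44.8% and 46.1% after knockdown. The means were 24.6% ± 1.29 and 45.4% ± 0.92 (SD, n = 2), so the gap between groups was far wider than that between replicates. With 2 libraries against 2, an exact test of such a share cannot fall under 1 in 3, and no test was made. The other enzymes of the shuttle belong to the list of substrate enzymes described further on and are named here for their role, outside the rule for named genes. The aminotransferases GOT1 and GOT2 had log2 fold changes of −0.01 and 0.24, and the malate dehydrogenases MDH1 and MDH2 of −0.10 and 0.25.

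**Figure D3:**
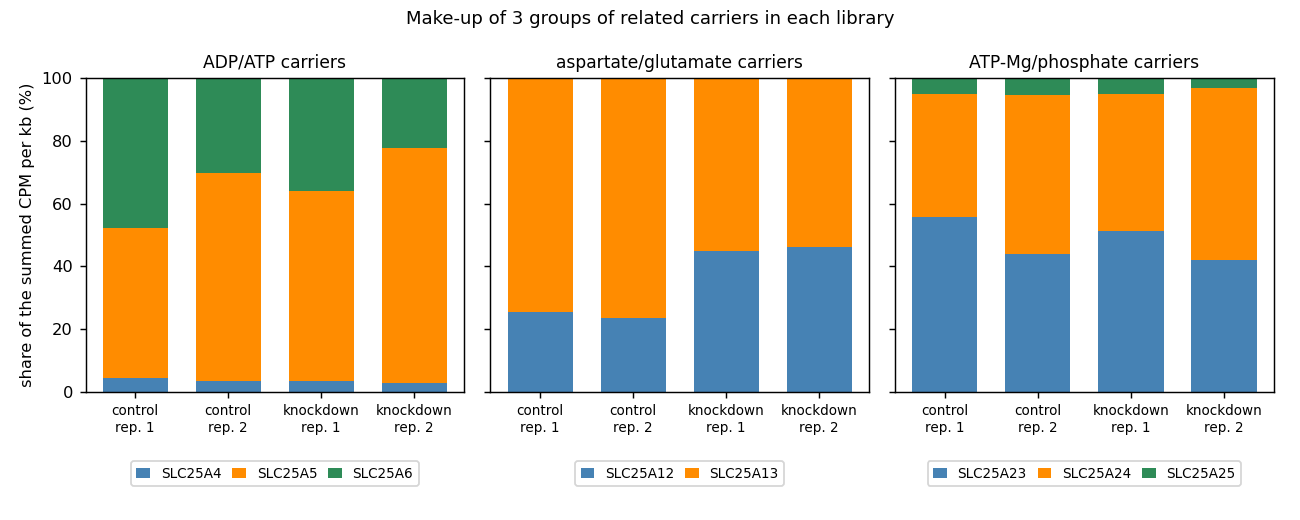
Share of each gene in the summed CPM per kb of its group (vertical axis, percent, stacked to 100) in each of the 4 libraries, with lengths taken as the longest basic protein-coding transcript. In the aspartate/glutamate carriers SLC25A12 is 25.5% and 23.7% in control and 44.8% and 46.1% in knockdown. The small share of SLC25A4 does not overlap either, at 4.29% and 3.53% in control and 3.32% and 2.64% in knockdown. The shares of SLC25A5, SLC25A6, SLC25A23 and SLC25A24 overlap between control and knockdown.

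SLC25A22, which brings glutamate into the matrix with a proton, stood at 60.1 and 55.5 CPM with control siRNA and 131.98 and 74.4 CPM after knockdown. It was 1.78-fold higher without overlap, with knockdown replicate 1 well above replicate 2 (log2 fold change 0.83, SE 0.31, edgeR adjusted p = 0.168). Without knockdown replicate 1 the log2 fold change was 0.37, and without knockdown replicate 2 it was 1.19. Its relative SLC25A18 had 4 counts in control and 0 in knockdown.

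Among the other amino acid carriers, SLC25A44, which carries branched-chain amino acids, stood at 48.3 and 47.7 CPM with control siRNA and 74.3 and 67.9 CPM after knockdown. Its replicates were close and the groups did not overlap, 1.48-fold higher in the knockdown (log2 fold change 0.57, SE 0.22, edgeR adjusted p = 0.18). SLC25A29, a carrier of basic amino acids, had a log2 fold change of −0.45. SLC25A38, the glycine carrier needed for haem synthesis, stood at 0.12 and SLC25A15, the ornithine carrier of the urea cycle, at 0.11.

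SLC25A20, which exchanges acylcarnitine for carnitine and so feeds fatty acid oxidation, stood at 14.7 and 19.03 CPM with control siRNA and 30.8 and 27.0 CPM after knockdown. Both knockdown libraries lay above both control libraries, 1.71-fold higher (log2 fold change 0.77, SE 0.27, edgeR adjusted p = 0.15). CPT2 and CPT1A, the inner- and outer-membrane enzymes of the same carnitine system, belong to the same list and were picked for this comparison after their values had been seen. CPT2 had a log2 fold change of 0.81 (edgeR adjusted p = 0.111) and CPT1A one of −0.10 (edgeR adjusted p = 0.802). The other carnitine enzymes of the list, CPT1B, CPT1C and CRAT, had log2 fold changes of −0.19, 0.48 and −0.04.

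SLC25A30 and SLC25A45 had the largest differences below 0. SLC25A30, a relative of the uncoupling proteins, stood at 41.96 and 47.8 CPM with control siRNA and 15.7 and 24.0 CPM after knockdown. The means were 44.9 ± 4.13 and 19.9 ± 5.91 CPM (SD, n = 2), or 2.26-fold lower after knockdown (log2 fold change −1.17, SE 0.29, edgeR adjusted p = 0.077). DESeq2 gave an adjusted p of 0.0159. The log2 fold change ran from −1.52 to −0.89 when any 1 library was left out. The other relatives of the uncoupling proteins, SLC25A14 and SLC25A27, stood at 0.24 and 0.10. The uncoupling proteins themselves belong to the transport list described further on and are named here outside the rule for named genes. UCP2 had a log2 fold change of −0.89 (edgeR adjusted p = 0.127) and UCP3 one of 0.31, while UCP1 had no count.

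SLC25A45, an orphan member, stood at 37.3 and 12.2 CPM with control siRNA and 9.13 and 5.47 CPM after knockdown. Its control libraries lay far apart, with replicate 2 close to the knockdown libraries. The log2 fold change was −1.76 (SE 0.56, edgeR adjusted p = 0.125), the largest in size among the carriers. It was −0.75 without control replicate 1, −2.36 without control replicate 2 and −2.17 without knockdown replicate 1. Each of these fits leaves a lone library in 1 group. SLC25A35, also an orphan member, stood at 23.2 and 21.4 CPM with control siRNA and 14.8 and 11.2 CPM after knockdown, 1.71-fold lower without overlap (log2 fold change −0.78, SE 0.28, edgeR adjusted p = 0.163). Of the remaining tested members of this group, SLC25A53 stood at −0.52, SLC25A43 at 0.18 and the outer-membrane protein SLC25A46, which acts in mitochondrial shape, at −0.03.

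**Figure D4:**
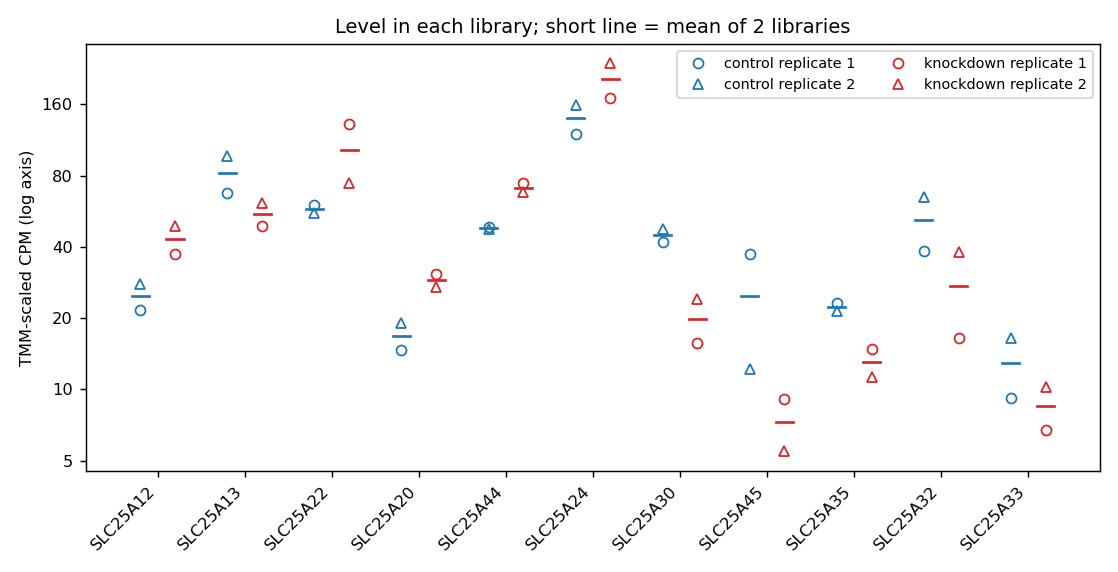
TMM-scaled CPM (log axis) of 11 SLC25 genes in each library; circles are replicate 1, triangles replicate 2, blue control and red knockdown, and short lines mark the mean of 2 libraries. Both knockdown libraries are above both control libraries for SLC25A12 and below them for SLC25A13, and SLC25A45 has its control libraries at 37.3 and 12.2 CPM.

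Among the 9 tested carriers of nucleotides and cofactors, 5 had negative and 4 positive values, and in 3 (33.3%) the knockdown libraries lay below the control libraries, against 26.8% of all tested genes. SLC25A32, which brings folate into the matrix, stood at 38.6 and 64.9 CPM with control siRNA and 16.5 and 38.1 CPM after knockdown. The groups were adjacent, with control replicate 1 just above knockdown replicate 2 (log2 fold change −0.92, SE 0.44, edgeR adjusted p = 0.262). Without knockdown replicate 2 the value was −1.65, and without knockdown replicate 1 it was −0.43. SLC25A33 and SLC25A36 carry pyrimidine nucleotides for mitochondrial DNA and RNA synthesis. SLC25A33 stood at 9.19 and 16.6 CPM with control siRNA and 6.75 and 10.3 CPM after knockdown, with overlap, and SLC25A36 at 111.9 and 111.5 against 60.95 and 100.3 CPM, without overlap. Their log2 fold changes were −0.60 and −0.47 (edgeR adjusted p = 0.412 and 0.357).

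Other cofactor carriers lay near 0. SLC25A51, the NAD+ carrier, stood at −0.18 and SLC25A26, the S-adenosylmethionine carrier, at 0.02. SLC25A42, the coenzyme A carrier, stood at 0.11, SLC25A16 at 0.15 and the peroxisomal SLC25A17 at 0.18. SLC25A52, listed at 0 counts, is a close copy of SLC25A51, so reads of this pair may not be kept apart.

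Of the 4 carriers of di- and tricarboxylates and keto acids, 2 had positive and 2 had negative values. SLC25A1, which exports citrate for fatty acid synthesis, had a log2 fold change of 0.20, and SLC25A11, the oxoglutarate/malate carrier of the shuttle, one of 0.27. SLC25A21, which carries oxoadipate, stood at −0.48 and the dicarboxylate carrier SLC25A10 at −0.11. The last rested on 9 to 36 counts per library, with an SE of 0.61.

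The iron carriers mitoferrin 2 (SLC25A28) and mitoferrin 1 (SLC25A37) supply iron for haem and iron-sulfur clusters. SLC25A28 stood at 38.4 and 32.1 CPM with control siRNA and 33.4 and 30.2 CPM after knockdown, with overlapping groups (log2 fold change −0.15, edgeR 95% interval −0.73 to 0.43). SLC25A37 stood at 114.3 and 45.1 CPM with control siRNA and 104.7 and 57.1 CPM after knockdown. Replicate 1 was the higher library in both groups, and the log2 fold change was 0.02 (edgeR 95% interval −1.11 to 1.15), with its sign turned by upper-quartile scaling. SLC25A39, which brings glutathione into mitochondria, stood at 0.21 and its relative SLC25A40 at 0.16. None of these 4 carriers had groups without overlap, where 54.3% of all tested genes did.

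Genes that work beside the carriers were taken from lists of related functions. Of 32 tested genes for carrier import and other inner- and outer-membrane transport, 1 fell and 0 rose past the threshold, a share near the 2.99% of all tested genes, with a median log2 fold change of 0.04, beside 0.01 over all tested genes. The gene was VDAC1, the main metabolite pore of the outer membrane, which stood at 396.1 and 407.1 CPM with control siRNA and 145.9 and 191.1 CPM after knockdown. It fell 2.38-fold (log2 fold change −1.25, SE 0.23, edgeR adjusted p = 0.0435). The other pores VDAC2 and VDAC3, named as its relatives outside the rule for named genes, had log2 fold changes of 0.04 and 0.30. The difference between VDAC1 and the carriers was not tested.

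Of 33 tested enzymes that make or use the carried substrates, 1 fell and 0 rose, again near the 2.99% of all tested genes, with a median log2 fold change of 0.08. This was ISCU, the scaffold on which mitochondria assemble iron-sulfur clusters, which stood at 79.0 and 71.5 CPM with control siRNA and 20.6 and 22.3 CPM after knockdown, with no overlap. It fell 3.50-fold (log2 fold change −1.81, SE 0.23, edgeR adjusted p = 0.0282).

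Of 13 regulators of mitochondrial biogenesis, 0 passed in edgeR, where 2.99% of all tested genes did, and 1 (7.69%) had an unadjusted p under 0.05, against 24.0% of all tested genes. That gene was TFAM, the packaging and transcription factor of mitochondrial DNA, at 68.2 and 109.8 CPM with control siRNA and 14.1 and 29.3 CPM after knockdown (log2 fold change −2.03, SE 0.41, edgeR adjusted p = 0.056). DESeq2 called TFAM, the 1 gene of this list it called. MYC and YY1 had the next smallest p-values, at 0.49 and −0.35.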

How the data were processed

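The table the authors deposited holds unnormalized read counts by gene symbol for 4 libraries, prepared, per the labels, with the Illumina TruSeq RNA kit. Named in the submitters' processing notes, without their roles, are STAR 2.5.2b and HTSeq 0.6.1, along with cutadapt and limma. The annotation and the strand setting are not stated there, so overlapping, antisense and near-identical genes may share reads. The 2 libraries of each group were compared first. Their counts differed by more than sampling noise allows (chi-square over its degrees of freedom 40.4 and 44.5). Each was counted as 1 sample, but this excess does not show that the replicates were separate cultures.

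The test was edgeR 4.0.16 under R 4.3.3 (TMM, filterByExpr with minimum count 10 and minimum total 15, quasi-likelihood test, no covariate, Benjamini-Hochberg over 13022 genes). The procedure was tested on simulated data. The simulated libraries were drawn independently of each other, so they do not cover deviations shared by libraries with the same replicate number. CPM are TMM-scaled. Each SE was derived from the same fit, as the absolute log2 fold change divided by the square root of the test's F statistic. The 95% intervals were built from this SE with a t quantile. DESeq2 1.42.0 and other scalings, filters and left-out libraries were alternatives. Promoters are from RefSeq (GRCh38.p14) and matched 34 of the 40 tested carriers; all 48 carriers matched a transcript length in GENCODE 29 (GRCh38). Libraries held 9.78 to 13.1 counts per CPM, but for abundant carriers the spread between libraries limits the precision more than the counts do (SLC25A3, with 33365 counts, had an SE of 0.24).

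Carriers, role groups and lists were chosen with earlier results of these data known. Values in every library were given for the 10 carriers with the smallest p, the 5 largest differences each way among carriers averaging 5 CPM or more, and SLC25A3, SLC25A4, SLC25A5, SLC25A6, SLC25A12, SLC25A13, SLC25A28 and SLC25A37. From each list, called genes or else the 3 with the smallest p were named, with further genes named in the text as outside this rule. The values of 1 tested carrier and 1 marker are not reported here; the carrier is included in the counts and medians.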

Additional observations from a re-analysis of the deposited data

How the results depend on the processing

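The scaling by DESeq2 size factors, upper-quartile scaling, library size alone and a mean of at least 5 CPM left 0 carriers called in either direction, and no scaling moved the median of all genes by 0.1. With no filter on low counts 1 carrier was called higher (SLC25A22) and 3 lower (SLC25A30, SLC25A32 and SLC25A45), where 10.5% of all genes were called. The DESeq2 Wald test called 2 lower, where it called 8.55% of the genes with an adjusted p. Leaving out 1 library leaves a lone library in a group, so only effect sizes are given for these fits here. These fits assume that the lone library left in a group varies like the other group. Between 5 and 8 of the 40 carriers then turned the sign of their log2 fold change, and the carriers' median ran from −0.08 to 0.16.

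The labels give both groups replicate numbers 1 and 2. Deviations of libraries with the same number correlated (r = 0.639 across genes), and the library titles carry neighbouring serial numbers within each replicate number. No label says what these serials or numbers mark, so with 2 numbers it stays unknown whether the samples were paired. With the replicate block, 5 carriers were called higher (SLC25A12, SLC25A20, SLC25A22, SLC25A24 and SLC25A44) and 7 lower (SLC25A13, SLC25A30, SLC25A32, SLC25A33, SLC25A35, SLC25A36 and SLC25A45), 30.0% of the carriers where 40.1% of all genes were called.

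Over all genes, 134 were called higher and 255 lower. The numbers were 826 and 1123 with no filter, 457 and 673 by DESeq2, and 2517 and 2710 with the replicate block. Leaving out 1 library gave 198 to 363 higher and 407 to 572 lower. As shares of the tested genes, 10.5% were called with no filter, 8.55% by DESeq2, 3.25% with upper-quartile scaling and 40.1% with the replicate block. The lists are to be read beside these shares, with 32 tested transport genes, 33 substrate enzymes and 13 regulators. In the transport list no filter gave 2 lower, and the replicate block 9 higher and 5 lower. Among substrate enzymes, DESeq2 gave 1 higher, no filter 1 higher and 2 lower, and the replicate block 7 higher and 4 lower. Among the regulators, 1 was called lower with no filter, by DESeq2 and with upper-quartile scaling, and the replicate block gave 1 higher and 2 lower. The cause of these differences was not tested. Counting error adds most to low carriers such as SLC25A10, with 9 to 36 counts per library.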
